A study of Homo sapiens with 8 samples.

Results

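The 46 genes described here code for proteins of the DNA damage checkpoint and of DNA repair, and they were taken by matching the gene symbol in the deposited tables to a fixed list of names. They are 46 of 55075 gene rows in all, of which 32200 had at least 1 read and 17471 were tested, and every one of the 46 passed the filter on low counts. They were split by known role into 7 groups: checkpoint signalling (6 genes), break sensing, resection and chromatin mediators (6), homologous recombination (12), the Fanconi anaemia pathway (11), end joining (5), mismatch repair (3) and single-strand break repair (3). RNA was sequenced from HCT116 cells, an established human colon cancer line. KO cells are the same line with a knockout of FBXW7, which selects proteins for destruction as part of a ubiquitin ligase, and WT cells are HCT116 cells without that knockout. The labels do not say whether KO cells are 1 clone. Both lines were heated at 42 °C for 1 h and either taken then (heat shock) or returned to 37 °C for 2 h (recovery), which gave KO recovery, KO heat shock, WT recovery and WT heat shock, with 2 libraries each. All 4 groups were therefore heated, and no unheated cells were analysed here.

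As background, breaks in DNA are detected by the complex of MRE11A, RAD50 and NBN, which activates the kinase ATM, while single-stranded DNA at stalled forks activates ATR through TOPBP1 and the clamp that RAD17 loads. These kinases act through CHEK1 and CHEK2 to stop the cell cycle, and through mediators such as MDC1, TP53BP1 and BRCA1 to direct repair, either by homologous recombination, which copies a sister chromatid and needs BRCA2, or by end joining, which needs the Ku subunits XRCC5 and XRCC6, PRKDC, XRCC4 and LIG4. The Fanconi anaemia proteins remove crosslinks between DNA strands, and many genes of these pathways are known to be transcribed most in S phase.

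Libraries held 24531569 and 27187797 counts in KO recovery, 26102649 and 34387618 in KO heat shock, 15507896 and 15654696 in WT recovery, and 20248480 and 19979779 in WT heat shock, so each KO library was deeper than each WT library. Between replicates, log2 CPM over all genes had an r of 0.991 to 0.995. The replicates are called biological, but nothing says that they came from separate cultures, so p-values measure the spread between these libraries, which may be technical. FBXW7 stood at 14.0 and 13.8 CPM (counts per 1000000 counts of the TMM-scaled library total) in KO recovery and 17.4 and 14.9 CPM in KO heat shock, against 23.0 and 21.7 CPM in WT recovery and 33.5 and 31.4 CPM in WT heat shock. KO cells thus kept FBXW7 reads, at a lower level than WT cells, with a log2 change of -1.01 ± 0.10 at heat shock (edgeR adjusted p = 1.88e-06) and -0.68 ± 0.11 at recovery (edgeR adjusted p = 8.03e-05). The sources used here do not say whether the counted reads cover the stretch changed by the knockout. Of 10 colon epithelium markers, 7 stood at 1 CPM or more in every library, whereas 5 of 6 immune and blood markers, 3 of 5 stromal markers and both hepatocyte markers stayed under 1 CPM in every library. No column name in the deposited tables states which of a pair of count columns is recovery. It was inferred from how each table is named and from the sign of its fold change, and if it were wrong, each recovery change below would turn round and the comparisons between the lines would swap conditions.

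Per kilobase of the longest transcript, the 46 genes spanned 1.01 CPM per kb (MSH3) to 259 CPM per kb (XRCC6), with a median of 8.18. PARP1, XRCC5 and XRCC6, at 139.7, 168 and 259 CPM per kb, were the most abundant, and MSH3, MRE11A and FANCF the least, at 1.01, 1.39 and 1.49 CPM per kb. Together the 46 genes took 4594 and 4555 CPM in KO recovery, 5084 and 4968 CPM in KO heat shock, 3846 and 3883 CPM in WT recovery and 4222 and 4157 CPM in WT heat shock. KO libraries were thus above WT libraries in this sum at either condition, and heat shock libraries above recovery libraries within each line.

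**Figure D1:**
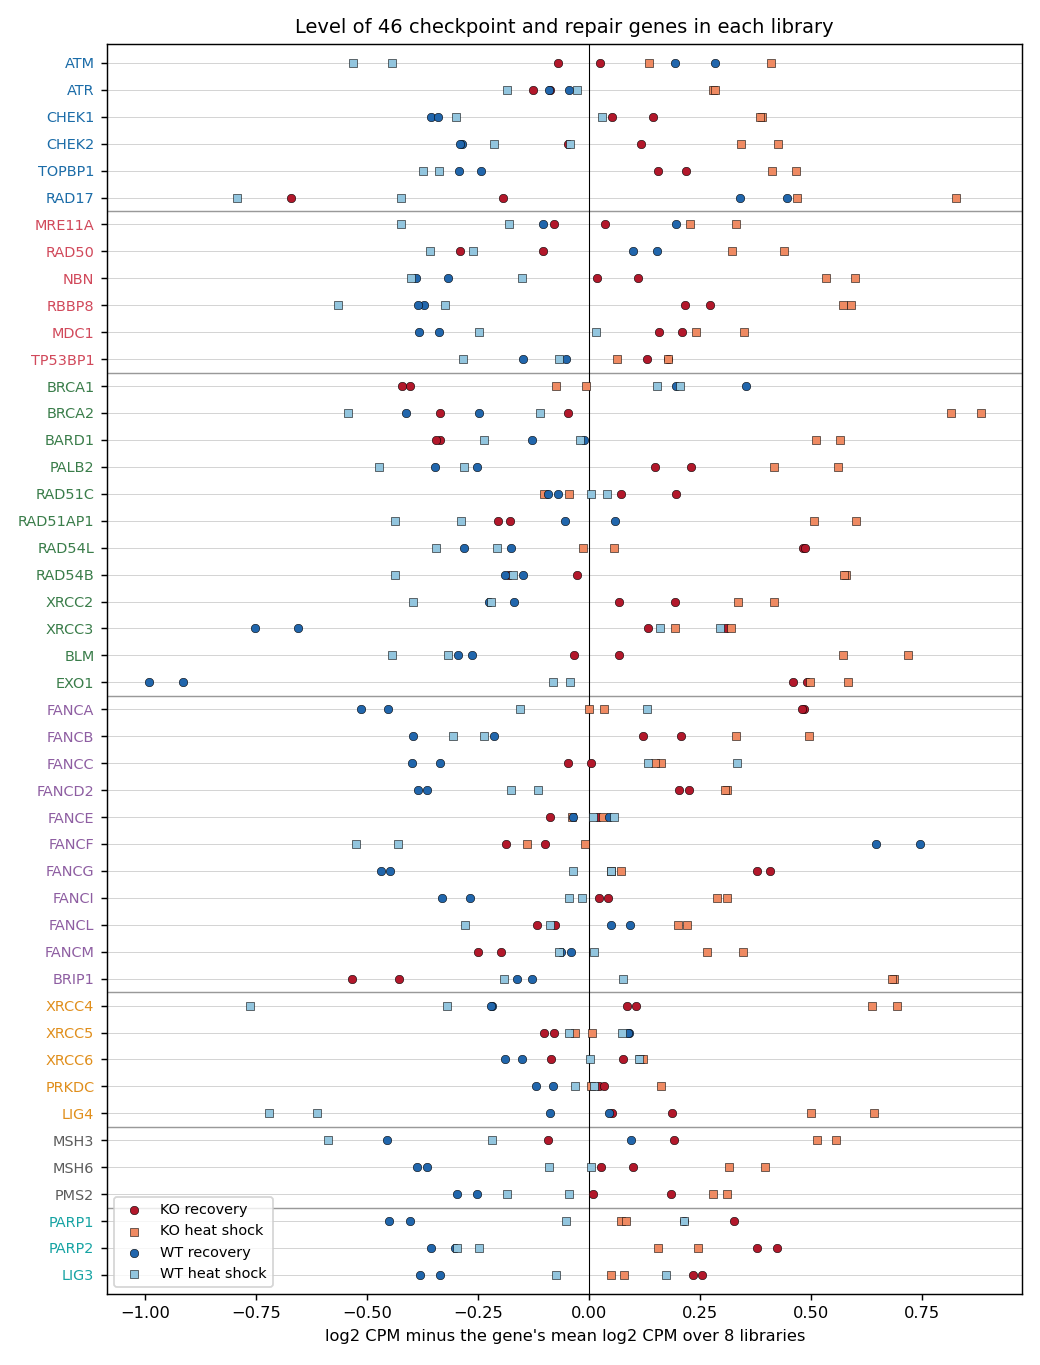
Level of each of the 46 genes in each of the 8 libraries, as log2 CPM minus that gene's mean log2 CPM over all libraries (x axis). Genes run down the page by role, circles are recovery and squares heat shock libraries, and the KO heat shock squares lie furthest to the right for most genes of checkpoint signalling, break sensing and homologous recombination.

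At the end of heat shock, most of these genes stood higher in KO cells than in WT cells. Of the 46, 33 were higher, 1 was lower and 12 did not pass the test (edgeR quasi-likelihood F test, adjusted p under 0.05 over all genes tested), where 27.4% of all tested genes were higher and 28.2% lower. The median log2 change of the 46 genes was 0.46, against -0.030 for all tested genes. Because RNA came from whole cultures, a lower level per cell and fewer cells with the transcript cannot be told apart.

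All 6 checkpoint signalling genes and all 6 break sensing and mediator genes were higher in KO cells at heat shock. RAD17 had 71.0 and 55.4 CPM in KO heat shock, against 23.1 and 29.9 CPM in WT heat shock, a log2 change of 1.25 ± 0.16 (edgeR adjusted p = 1.14e-05), the largest of the 46. ATM had 34.5 and 28.5 CPM in KO heat shock and 18.0 and 19.1 CPM in WT heat shock (0.76 ± 0.11, edgeR adjusted p = 4.01e-05). In both genes the KO libraries lay above both WT libraries, which for RAD17 the rule for giving full statistics required. The difference was smaller for ATR, with 50.0 and 50.2 CPM in KO and 40.4 and 36.3 CPM in WT heat shock (0.39 ± 0.09, edgeR adjusted p = 0.00155). The kinases downstream were close to each other in size, with 80.4 and 80.1 CPM of CHEK1 in KO heat shock against 49.9 and 62.6 CPM in WT heat shock (0.51 ± 0.10, edgeR adjusted p = 4.87e-04). CHEK2 had 32.1 and 34.0 CPM in KO heat shock and 24.6 and 21.9 CPM in WT heat shock (0.51 ± 0.10, edgeR adjusted p = 5.39e-04). The log2 changes of ATM and RAD17 were larger than those of ATR, CHEK1 and CHEK2, without a test between genes. RBBP8, also called CtIP, which starts the trimming of broken ends, had 219.7 and 222 CPM in KO heat shock, against 99.96 and 118 CPM in WT heat shock (1.02 ± 0.09, edgeR adjusted p = 4.67e-07). The other break sensing and mediator genes had log2 changes between 0.29 (TP53BP1) and 0.84 (NBN).

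In homologous recombination 9 of 12 genes were higher in KO heat shock. BRCA2, a central protein of homologous recombination, had 49.7 and 47.5 CPM in KO heat shock, against 18.5 and 25.0 CPM in WT heat shock (1.16 ± 0.13, edgeR adjusted p = 4.65e-06), and the KO libraries were clear of the WT ones. The helicase gene BLM had 52.8 and 58.4 CPM in KO and 26.1 and 28.5 CPM in WT heat shock (1.03 ± 0.09, edgeR adjusted p = 6.74e-07). BRCA1 went the other way and was the 1 gene that was lower. It had 55.9 and 58.6 CPM in KO heat shock and 65.5 and 67.8 CPM in WT heat shock (-0.22 ± 0.08, edgeR adjusted p = 0.0377). Its binding partner BARD1 was higher, at 31.2 and 30.1 CPM in KO heat shock against 17.9 and 20.8 CPM in WT heat shock (0.66 ± 0.10, edgeR adjusted p = 7.37e-05). With GC and length offsets BARD1 no longer passed (0.15, edgeR adjusted p = 0.149) and BRCA1 was called lower again (-0.50, edgeR adjusted p = 2.34e-05). RAD51C and XRCC3, which act together in homologous recombination, did not pass, with log2 changes of -0.10 and 0.031.

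End joining was split. XRCC4 and LIG4, whose products form the ligase complex, were higher in KO heat shock, whereas the break-binding kinase complex was not. LIG4 had 21.2 and 19.2 CPM in KO heat shock, against 8.24 and 8.87 CPM in WT heat shock (1.23 ± 0.12, edgeR adjusted p = 1.06e-06). XRCC4 had 52.6 and 54.6 CPM in KO heat shock, against 19.9 and 27.1 CPM in WT heat shock (1.19 ± 0.12, edgeR adjusted p = 1.26e-06). PRKDC, the catalytic subunit of DNA-dependent protein kinase, had 605 and 543 CPM in KO and 545 and 529 CPM in WT heat shock (0.10 ± 0.08, edgeR adjusted p = 0.333), with overlapping groups. The Ku genes XRCC5 and XRCC6 also did not pass, with log2 changes of -0.029 and 0.06.

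Of the 11 Fanconi anaemia genes, 6 were higher in KO heat shock. Among them the helicase gene BRIP1 had 65.3 and 65.2 CPM in KO heat shock, against 35.5 and 42.8 CPM in WT heat shock (0.74 ± 0.10, edgeR adjusted p = 1.69e-05). FANCA, FANCC, FANCE, FANCF and FANCG, which belong to the core complex that ubiquitinates FANCD2, did not pass, with log2 changes from -0.082 to 0.41. FANCB and FANCL of the same complex were, however, among the 6 called higher. With GC and length offsets, 5 of the 11 Fanconi anaemia genes were called higher, 2 of which were among the 6 before. All 3 mismatch repair genes were higher, the mismatch-binding subunits MSH3 and MSH6 and the PMS2 endonuclease, MSH3 by 0.92, MSH6 by 0.40 and PMS2 by 0.41 on the log2 scale, and of the single-strand break repair genes PARP2 was (0.47). PARP1 and LIG3 did not pass, with log2 changes of -0.0088 and 0.0094. Leaving out any 1 of the 8 libraries kept 30 of the 34 calls, and the calls lost were those of TP53BP1, RAD54L, FANCM and BRCA1. The BRCA1 call was lost without KO recovery replicate 2, KO heat shock replicate 1 or KO heat shock replicate 2, which left 0 genes lower.

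**Figure D2:**
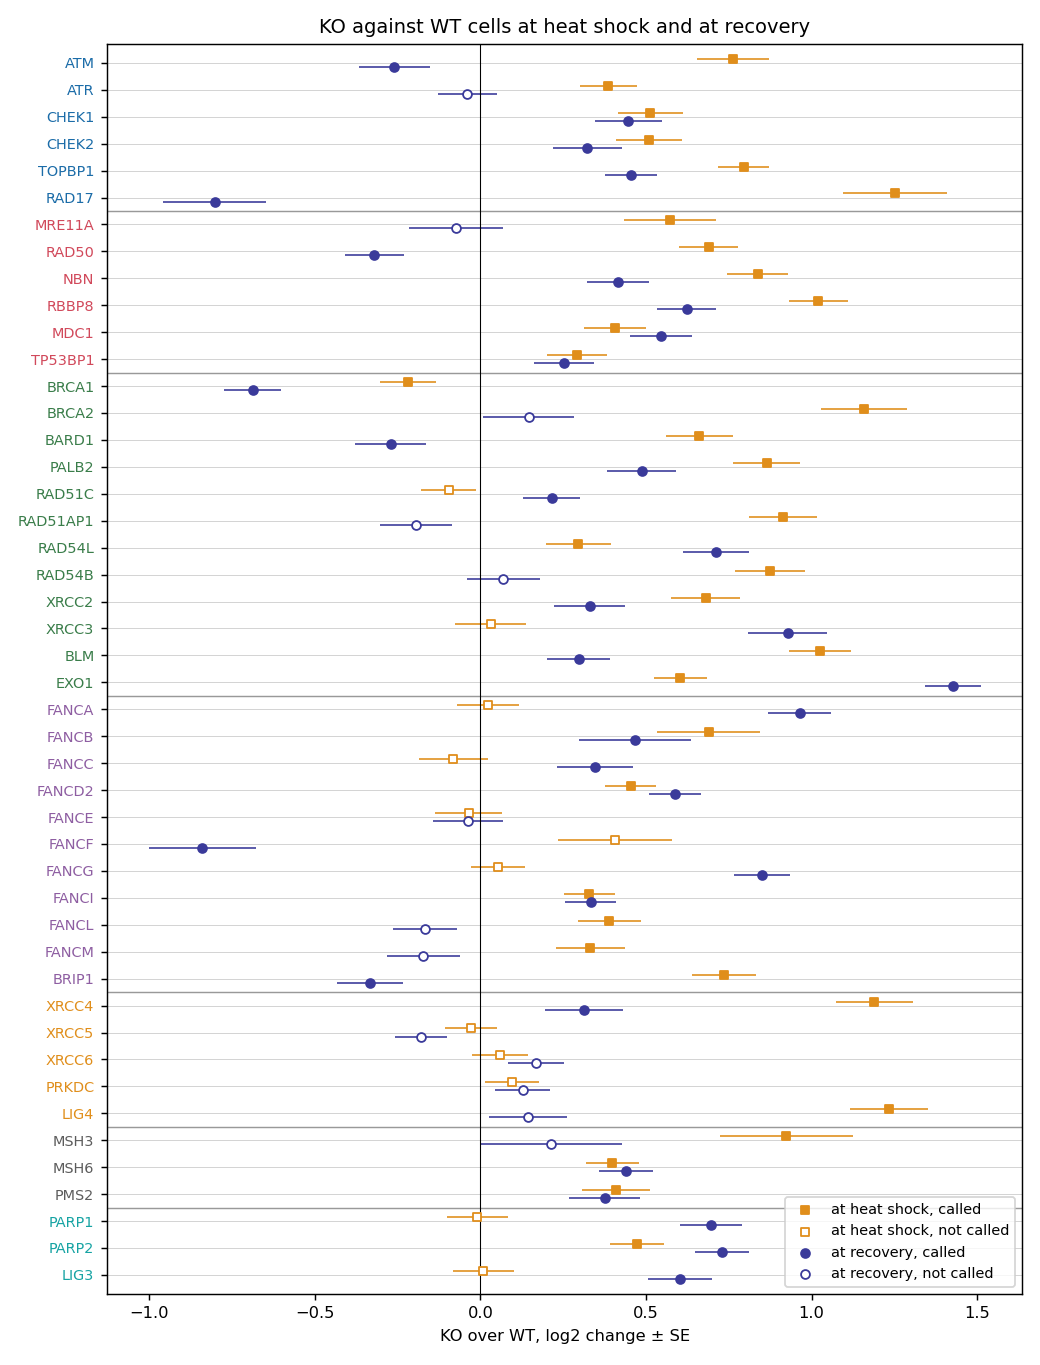
Log2 change of KO over WT cells (x axis, ± SE from the edgeR fit, 2 libraries a group) for each of the 46 genes, at heat shock (squares) and at recovery (circles), filled where called at an adjusted p under 0.05. The squares run from -0.22 for BRCA1 to 1.25 for RAD17, and the circles from -0.84 for FANCF to 1.43 for EXO1.

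After 2 h of recovery, the genes higher in KO cells were still in the majority but the order had changed. Of the 46, 26 were higher, 7 lower and 13 not called, where 31.8% of all tested genes were higher and 31.3% lower. The median log2 change was 0.31, against -0.010 for all tested genes. A total of 19 genes were higher in KO cells at heat shock and also at recovery: CHEK1, CHEK2, TOPBP1, NBN, RBBP8, MDC1, TP53BP1, PALB2, RAD54L, XRCC2, BLM, EXO1, FANCB, FANCD2, FANCI, XRCC4, MSH6, PMS2 and PARP2.

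EXO1, an exonuclease of end resection and mismatch repair, had the largest difference at recovery, with 82.5 and 80.7 CPM in KO recovery against 29.5 and 31.1 CPM in WT recovery (1.43 ± 0.08, edgeR adjusted p = 5.34e-09). FANCA had 109 and 108 CPM in KO recovery and 56.8 and 54.4 CPM in WT recovery (0.96 ± 0.09, edgeR adjusted p = 7.79e-07). FANCG, a partner of FANCA in the core complex, had 54.8 and 53.6 CPM in KO recovery and 30.3 and 29.8 CPM in WT recovery (0.85 ± 0.09, edgeR adjusted p = 9.20e-07). In these 3 genes, as in XRCC3, both KO recovery libraries lay above both WT recovery libraries. The rule for giving full statistics required this, so it adds no support. XRCC3 had 18.5 and 20.9 CPM in KO recovery, against 10.03 and 10.7 CPM in WT recovery (0.93 ± 0.12, edgeR adjusted p = 1.02e-05). RAD54L, a motor protein of homologous recombination, had 31.5 and 31.6 CPM in KO recovery and 18.5 and 19.9 CPM in WT recovery (0.71 ± 0.10, edgeR adjusted p = 2.10e-05). All 3 single-strand break repair genes were higher at recovery. PARP1, the main sensor of DNA nicks, had 682 and 630.3 CPM in KO recovery, against 398 and 411 CPM in WT recovery (0.70 ± 0.09, edgeR adjusted p = 1.60e-05). PARP2 had 68.2 and 70.4 CPM in KO recovery and 41.0 and 42.6 CPM in WT recovery (0.73 ± 0.08, edgeR adjusted p = 3.16e-06). LIG3, the ligase of this pathway, had a log2 change of 0.60. The central pair of the Fanconi anaemia pathway, FANCD2 and FANCI, was also higher. FANCD2 had 77.4 and 78.6 CPM in KO recovery and 51.5 and 52.2 CPM in WT recovery, a log2 change of 0.59. Its partner in the ubiquitinated pair, FANCI, changed by 0.33.

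The 7 genes that were lower in KO recovery were ATM, RAD17, RAD50, BRCA1, BARD1, BRIP1 and FANCF. RAD17 had 25.2 and 35.0 CPM in KO recovery, against 54.6 and 50.7 CPM in WT recovery (-0.80 ± 0.16, edgeR adjusted p = 4.25e-04), so its difference between the lines had the opposite sign to that at heat shock. The same turn held for ATM, RAD50, BARD1 and BRIP1, which were also higher at heat shock. ATM had 24.7 and 26.4 CPM in KO recovery, against 31.6 and 29.7 CPM in WT recovery (-0.26 ± 0.11, edgeR adjusted p = 0.0492). RAD50 had 98.3 and 112 CPM in KO recovery and 129 and 134 CPM in WT recovery (-0.32 ± 0.09, edgeR adjusted p = 0.00575). The log2 changes of ATM and RAD50 lay nearer to 0 than that of RAD17. BARD1 changed by -0.27 ± 0.11 (edgeR adjusted p = 0.0395) and BRIP1 by -0.33 ± 0.10 (edgeR adjusted p = 0.00971). BRCA1 was lower at recovery as it was at heat shock, with 44.0 and 44.5 CPM in KO recovery against 67.4 and 75.2 CPM in WT recovery (-0.69 ± 0.09, edgeR adjusted p = 7.38e-06). Both BRCA1 libraries of KO recovery lay below both of WT recovery, and so did those of FANCF. For FANCF the rule for giving full statistics required this. FANCF, a core complex gene at low level, had 3.93 and 3.69 CPM in KO recovery, against 7.05 and 6.58 CPM in WT recovery (-0.84 ± 0.16, edgeR adjusted p = 3.86e-04).

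CHEK1 stayed higher, with 63.6 and 67.8 CPM in KO recovery against 47.9 and 48.5 CPM in WT recovery (0.45 ± 0.10, edgeR adjusted p = 0.00138). CHEK2 had 27.4 and 24.5 CPM in KO recovery, against 20.8 and 20.7 CPM in WT recovery (0.32 ± 0.10, edgeR adjusted p = 0.014). ATR, BRCA2 and PRKDC did not pass, with log2 changes of -0.039 ± 0.09 (edgeR adjusted p = 0.72), 0.15 ± 0.14 (edgeR adjusted p = 0.369) and 0.13 ± 0.08 (edgeR adjusted p = 0.188). Leaving out any 1 library kept 20 of the 33 calls, losing those of ATM, CHEK2, RAD50, TP53BP1, BARD1, RAD51C, XRCC2, BLM, FANCB, FANCC, BRIP1, XRCC4 and PMS2. The count of genes higher fell to 17 without WT recovery replicate 1, and that of genes lower to 3 without KO recovery replicate 1 or without WT recovery replicate 2. With upper-quartile scaling, which moved the median of all tested genes to -0.18, 16 genes were higher and 11 lower, where 24.1% of all tested genes were higher and 39.2% lower.

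Promoter sequences from RefSeq (GRCh38.p14, 250 bases before to 50 after the annotated start) were matched for 41 of the 46 genes, with 60 promoters in all. NBN, RAD54B, FANCI, XRCC5 and PRKDC had no entry. They were searched on both strands for E2F sites (TTTCGCGC, TTTGGCGC or TTTCCCGC), for CCAAT, for the CHR element (TTTGAA or TTCGAA) and for a heat shock element. The E2F letters were found in the promoters of 8 genes, EXO1, FANCC, FANCD2, MSH3, MSH6, TOPBP1, XRCC2 and XRCC6, that is in 8 of 60 promoters, against 2.74% of 35116 promoters in the table. CCAAT was found for 22 genes, in 29 of 60 promoters against 34.6% of all, and the CHR letters for 6 genes, in 6 promoters against 16.4% of all. The heat shock element was found in 0 of the 60 promoters, against 0.490% of all. A match describes these letters only, and no binding was measured. Of the 8 genes with E2F letters, 5 were higher in KO cells at heat shock and at recovery, as were 19 of all 46 genes. FANCC, MSH3 and XRCC6 hold the letters too but were not in that class, and their match positions are not given. Whether the letters go with the class was not tested. The promoters of the 5 genes hold the letters within 21 bases of the annotated start and are shown with the matching bases in capitals. The match begins at base 4 from the annotated start in EXO1, -2 in FANCD2, 3 in MSH6, -7 in TOPBP1 and 21 in XRCC2, counted from 0 at the first base after the 250 that precede the start. The promoters of BRIP1 and FANCA follow, the genes with the largest fall and the largest rise in KO recovery, with CCAAT on either strand in capitals.
EXO1 (chr1:241847954-241848253, plus strand): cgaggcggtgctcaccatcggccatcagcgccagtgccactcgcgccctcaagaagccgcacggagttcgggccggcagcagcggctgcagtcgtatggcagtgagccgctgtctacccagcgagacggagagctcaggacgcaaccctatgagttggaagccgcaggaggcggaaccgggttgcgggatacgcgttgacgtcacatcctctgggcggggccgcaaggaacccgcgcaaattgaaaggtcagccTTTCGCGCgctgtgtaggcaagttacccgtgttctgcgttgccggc
FANCD2 (chr3:10026187-10026486, plus strand): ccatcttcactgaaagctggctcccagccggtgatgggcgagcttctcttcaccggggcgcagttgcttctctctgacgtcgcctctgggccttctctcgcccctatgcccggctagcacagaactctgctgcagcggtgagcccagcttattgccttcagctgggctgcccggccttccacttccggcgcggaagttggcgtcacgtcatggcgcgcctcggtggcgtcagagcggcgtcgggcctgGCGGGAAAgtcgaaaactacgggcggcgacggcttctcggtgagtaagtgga
MSH6 (chr2:47782895-47783194, plus strand): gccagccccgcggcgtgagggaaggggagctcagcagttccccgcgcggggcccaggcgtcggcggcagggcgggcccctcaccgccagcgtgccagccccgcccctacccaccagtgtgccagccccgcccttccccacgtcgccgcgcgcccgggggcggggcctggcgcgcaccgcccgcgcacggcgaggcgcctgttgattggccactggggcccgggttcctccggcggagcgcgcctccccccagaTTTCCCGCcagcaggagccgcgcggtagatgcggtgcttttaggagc
TOPBP1 (chr3:133661892-133662191, minus strand): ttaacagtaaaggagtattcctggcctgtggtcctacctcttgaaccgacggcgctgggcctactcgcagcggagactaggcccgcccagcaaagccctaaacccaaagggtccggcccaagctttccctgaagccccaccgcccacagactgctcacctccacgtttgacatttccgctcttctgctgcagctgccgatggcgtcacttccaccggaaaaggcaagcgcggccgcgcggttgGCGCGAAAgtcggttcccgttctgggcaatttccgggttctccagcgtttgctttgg
XRCC2 (chr7:152676092-152676391, minus strand): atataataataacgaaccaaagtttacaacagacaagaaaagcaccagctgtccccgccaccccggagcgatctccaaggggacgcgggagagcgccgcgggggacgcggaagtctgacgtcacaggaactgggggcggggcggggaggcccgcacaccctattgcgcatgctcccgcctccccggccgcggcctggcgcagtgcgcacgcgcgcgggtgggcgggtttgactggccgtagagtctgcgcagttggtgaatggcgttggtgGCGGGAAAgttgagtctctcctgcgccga
BRIP1 (chr17:61863479-61863778, minus strand): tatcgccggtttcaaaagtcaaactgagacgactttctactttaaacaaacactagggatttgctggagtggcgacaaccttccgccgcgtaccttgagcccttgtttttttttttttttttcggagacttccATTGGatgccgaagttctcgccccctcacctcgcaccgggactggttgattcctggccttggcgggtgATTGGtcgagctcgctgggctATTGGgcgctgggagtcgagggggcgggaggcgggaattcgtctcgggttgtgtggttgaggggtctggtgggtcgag
FANCA (chr16:89816598-89816897, minus strand): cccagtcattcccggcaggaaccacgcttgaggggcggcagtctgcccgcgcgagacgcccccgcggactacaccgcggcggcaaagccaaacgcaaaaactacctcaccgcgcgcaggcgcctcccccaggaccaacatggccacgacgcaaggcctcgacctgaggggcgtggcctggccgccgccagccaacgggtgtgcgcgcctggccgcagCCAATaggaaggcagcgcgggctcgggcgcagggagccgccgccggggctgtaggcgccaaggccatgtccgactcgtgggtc

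In KO cells, recovery was marked by a fall of genes that had been high at heat shock. Relative to KO heat shock, 24 of the 46 genes fell in KO recovery, 3 rose and 19 were not called, where 21.1% of all tested genes fell and 20.6% rose. The median log2 change was -0.28, against -0.023 for all tested genes. The KO heat shock libraries enter this comparison and the comparison between lines at heat shock, so the pair are not independent. All 6 checkpoint signalling genes fell, as did 7 of 12 homologous recombination genes, 4 of 11 Fanconi anaemia genes, 3 of 6 break sensing and mediator genes, 2 of 5 end joining genes and 2 of 3 mismatch repair genes.

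The largest fall was that of BRIP1, with 28.0 and 30.2 CPM in KO recovery against 65.3 and 65.2 CPM in KO heat shock (-1.16 ± 0.10, edgeR adjusted p = 3.40e-08). RAD17 had 25.2 and 35.0 CPM in KO recovery, against 71.0 and 55.4 CPM in KO heat shock (-1.07 ± 0.15, edgeR adjusted p = 1.27e-05). BRCA2 had 21.4 and 26.1 CPM in KO recovery, against 49.7 and 47.5 CPM in KO heat shock (-1.03 ± 0.12, edgeR adjusted p = 2.73e-06). In these 3 genes both recovery libraries lay below both heat shock libraries. BARD1 had 16.7 and 16.6 CPM in KO recovery and 31.2 and 30.1 CPM in KO heat shock (-0.88 ± 0.10, edgeR adjusted p = 2.54e-06). RAD51AP1, a homologous recombination gene, had 15.3 and 15.6 CPM in KO recovery and 26.7 and 25.0 CPM in KO heat shock (-0.74 ± 0.11, edgeR adjusted p = 2.17e-05). RAD54B, a relative of RAD54L, fell as well, with 19.6 and 21.8 CPM in KO recovery against 33.2 and 33.1 CPM in KO heat shock (-0.68 ± 0.11, edgeR adjusted p = 5.85e-05). In these 3 genes, too, the groups did not overlap. The fall of ATM was -0.29 ± 0.11 (edgeR adjusted p = 0.0387), that of ATR -0.39 ± 0.09 (edgeR adjusted p = 0.00254), that of CHEK1 -0.29 ± 0.10 (edgeR adjusted p = 0.0202) and that of CHEK2 -0.35 ± 0.10 (edgeR adjusted p = 0.0107) on the log2 scale. BRCA1 also fell, by -0.37 ± 0.09 (edgeR adjusted p = 0.00302), whereas PRKDC did not pass, with 549 and 554 CPM in KO recovery against 605 and 543 CPM in KO heat shock (-0.056 ± 0.10, edgeR adjusted p = 0.686).

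The 3 genes that rose in KO recovery were FANCA, RAD54L and FANCG. FANCA had 109 and 108 CPM in KO recovery, against 77.7 and 79.5 CPM in KO heat shock (0.46 ± 0.09, edgeR adjusted p = 5.03e-04). RAD54L had 31.5 and 31.6 CPM in KO recovery, against 23.4 and 22.3 CPM in KO heat shock (0.46 ± 0.10, edgeR adjusted p = 0.00134). FANCG had 54.8 and 53.6 CPM in KO recovery, against 43.4 and 42.8 CPM in KO heat shock (0.33 ± 0.09, edgeR adjusted p = 0.00713). In each of them both recovery libraries lay above both heat shock libraries, which adds no support in genes already called with both pairs alike. RAD54L and RAD54B, related motor proteins, thus changed in opposite directions. Because each replicate pair was fitted as a block, leaving out 1 KO library also takes its partner out of this comparison. The KO response then rests on 1 pair, and its spread on the WT pairs. Leaving out any 1 library kept 9 of the 27 calls, those of RAD17, BRCA2, BARD1, RAD51AP1, RAD54B, BLM, BRIP1, XRCC4 and FANCA. The count that fell was 8 without KO recovery replicate 1 or KO heat shock replicate 1 and 13 without KO recovery replicate 2 or KO heat shock replicate 2, and the count that rose was 1 without either library of KO pair 2 and 6 without any 1 of the WT libraries.

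In WT cells the share of these genes called on recovery was no larger than that over all tested genes, in either direction. Relative to WT heat shock, 7 of the 46 genes rose in WT recovery, 11 fell and 28 were not called, where 24.8% of all tested genes rose and 26.0% fell. The median log2 change was -0.016, against 0.0092 for all tested genes. The genes that rose were ATM, RAD17, RAD50, LIG4, XRCC4, RAD51AP1 and FANCF. They included 2 of 6 checkpoint signalling genes and 1 of 6 break sensing and mediator genes. Those that fell were 5 Fanconi anaemia genes (FANCA, FANCC, FANCD2, FANCG and FANCI), EXO1, XRCC3, PARP1, LIG3, MSH6 and MDC1.

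FANCF had the largest rise, with 7.05 and 6.58 CPM in WT recovery against 3.12 and 2.92 CPM in WT heat shock (1.17 ± 0.19, edgeR adjusted p = 6.63e-05). RAD17 had 54.6 and 50.7 CPM in WT recovery, against 23.1 and 29.9 CPM in WT heat shock (1.00 ± 0.15, edgeR adjusted p = 2.64e-05). ATM had 31.6 and 29.7 CPM in WT recovery, against 18.0 and 19.1 CPM in WT heat shock (0.73 ± 0.12, edgeR adjusted p = 5.30e-05). WT recovery libraries lay above WT heat shock libraries in all 3 genes, which adds no support in genes picked by size of change. LIG4 had 12.8 and 14.0 CPM in WT recovery and 8.24 and 8.87 CPM in WT heat shock (0.64 ± 0.14, edgeR adjusted p = 6.24e-04). RAD50 rose by 0.44 ± 0.10 (edgeR adjusted p = 0.00119) and RAD51AP1 by 0.36 ± 0.12 (edgeR adjusted p = 0.015) on the log2 scale.

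The largest fall in WT recovery was that of XRCC3, with 10.03 and 10.7 CPM in WT recovery against 20.7 and 18.9 CPM in WT heat shock (-0.93 ± 0.12, edgeR adjusted p = 6.22e-06). EXO1 had 29.5 and 31.1 CPM in WT recovery, against 55.5 and 57.0 CPM in WT heat shock (-0.89 ± 0.10, edgeR adjusted p = 6.65e-07). FANCC, of the Fanconi core complex, had 12.4 and 11.9 CPM in WT recovery, against 17.1 and 19.7 CPM in WT heat shock (-0.60 ± 0.12, edgeR adjusted p = 5.34e-04). The groups did not overlap in any of these 3 genes, and because they were picked by size of change this adds no support. PARP1 had 398 and 411 CPM in WT recovery and 630.3 and 524 CPM in WT heat shock (-0.51 ± 0.10, edgeR adjusted p = 5.26e-04). FANCA had 56.8 and 54.4 CPM in WT recovery and 85.0 and 69.7 CPM in WT heat shock (-0.47 ± 0.10, edgeR adjusted p = 4.70e-04). FANCG, another gene of the core complex, fell as well (-0.47 ± 0.10, edgeR adjusted p = 6.80e-04). Among the genes that did not pass, ATR changed by 0.039 ± 0.10 (edgeR adjusted p = 0.766), CHEK1 by -0.21 ± 0.10 (0.0821), CHEK2 by -0.16 ± 0.11 (0.254), BRCA1 by 0.10 ± 0.09 (0.403), BRCA2 by -0.0076 ± 0.14 (0.968) and PRKDC by -0.089 ± 0.10 (0.477), with adjusted p in brackets. Leaving out any 1 library kept 13 of the 18 calls and lost those of MDC1, RAD51AP1, FANCD2, FANCI and XRCC4. With upper-quartile scaling, 9 genes rose and 8 fell, where 30.4% of all tested genes rose and 21.1% fell.

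**Figure D3:**
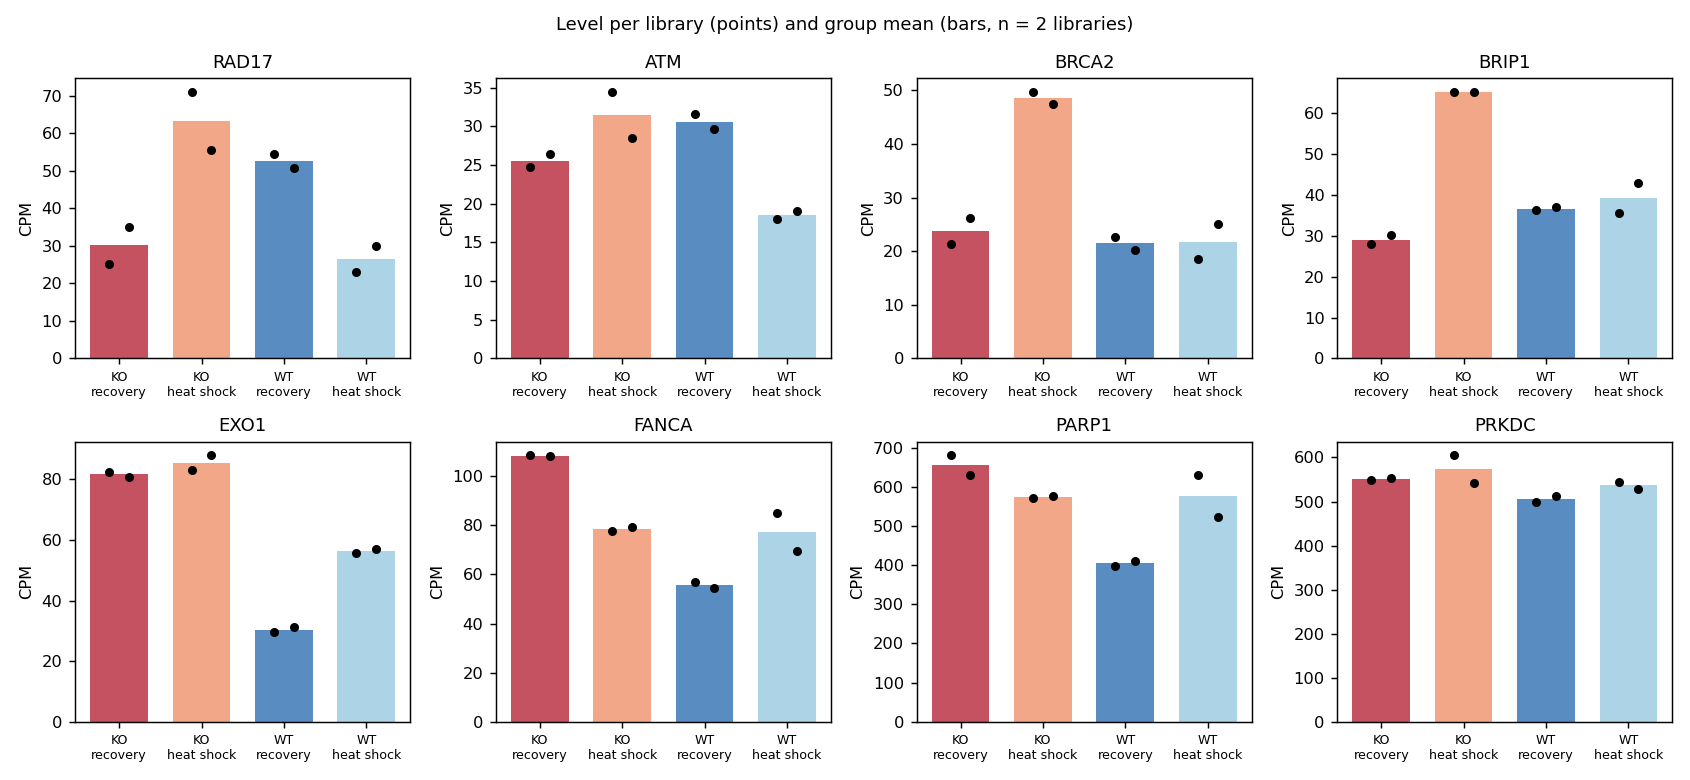
Level in CPM (y axis, linear, from 0) of RAD17, ATM, BRCA2, BRIP1, EXO1, FANCA, PARP1 and PRKDC in each library (points) with the group mean (bars, n = 2). KO heat shock is the highest group for BRCA2 and BRIP1, WT recovery is the lowest for EXO1, FANCA and PARP1, and PRKDC lies between 498 and 605 CPM in every library.

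The recovery responses of the lines were then compared with each other by the interaction term of the same fit, KO response minus WT response. The response differed in 30 of the 46 genes, being lower in KO cells in 22 and higher in 8, with 16 not called, where 27.8% of all tested genes were lower and 28.5% higher. The median difference was -0.28 on the log2 scale, against -0.032 for all tested genes. Among the 14 genes whose transcripts had under 40% GC it was -0.85, against -0.77 for all tested genes of that GC. At 40 to 45% GC (16 genes) it was -0.36, against -0.41, and at 55% or more (4 genes) 0.85, against 0.54. A total of 6 genes rose in WT cells and fell in KO cells: ATM, RAD17, RAD50, RAD51AP1, LIG4 and XRCC4. FANCA and FANCG did the opposite, and FANCI and MSH6 fell in both lines.

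RAD17 had the largest difference, with a log2 change of -1.07 in KO cells and 1.00 in WT cells (difference -2.06 ± 0.21, edgeR adjusted p = 1.90e-07). FANCF changed by -0.075 in KO cells and 1.17 in WT cells (difference -1.25 ± 0.27, edgeR adjusted p = 5.69e-04). RAD51AP1 changed by -0.74 in KO cells and 0.36 in WT cells (difference -1.11 ± 0.16, edgeR adjusted p = 1.02e-05). The first and the last of these moved to opposite sides of 0 in the lines, whereas FANCF moved in WT cells. For LIG4 the difference was -1.09 ± 0.18 (edgeR adjusted p = 3.91e-05), for BRIP1 -1.07 ± 0.14 (edgeR adjusted p = 3.60e-06), for BRCA2 -1.03 ± 0.18 (edgeR adjusted p = 1.03e-04), for ATM -1.02 ± 0.16 (edgeR adjusted p = 2.87e-05) and for BRCA1 -0.47 ± 0.13 (edgeR adjusted p = 0.00472). BRCA2 and BRIP1 fell in KO cells and did not pass in WT cells.

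On the other side, FANCA changed by 0.46 in KO cells and -0.47 in WT cells (difference 0.93 ± 0.13, edgeR adjusted p = 8.81e-06). XRCC3 changed by -0.034 in KO cells and -0.93 in WT cells (difference 0.90 ± 0.16, edgeR adjusted p = 1.38e-04). EXO1 changed by -0.067 in KO cells and -0.89 in WT cells (difference 0.82 ± 0.13, edgeR adjusted p = 3.22e-05). XRCC3 and EXO1 thus fell in WT cells and did not pass in KO cells. The difference was 0.80 ± 0.14 for FANCG (edgeR adjusted p = 6.08e-05), 0.70 ± 0.15 for PARP1 (edgeR adjusted p = 5.07e-04) and 0.59 ± 0.14 for LIG3 (edgeR adjusted p = 0.00138). CHEK1, CHEK2 and PRKDC did not pass, with differences of -0.074 ± 0.14 (edgeR adjusted p = 0.672), -0.19 ± 0.15 (edgeR adjusted p = 0.308) and 0.033 ± 0.14 (edgeR adjusted p = 0.857), while ATR did, with -0.43 ± 0.13 (edgeR adjusted p = 0.0114). Leaving out any 1 library kept 19 of the 30 calls, losing those of ATR, TOPBP1, MRE11A, NBN, RBBP8, BRCA1, PALB2, RAD54L, FANCC, FANCM and MSH3, and the count with a lower response in KO was 14 without KO recovery replicate 1 or without KO heat shock replicate 1.

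**Figure D4:**
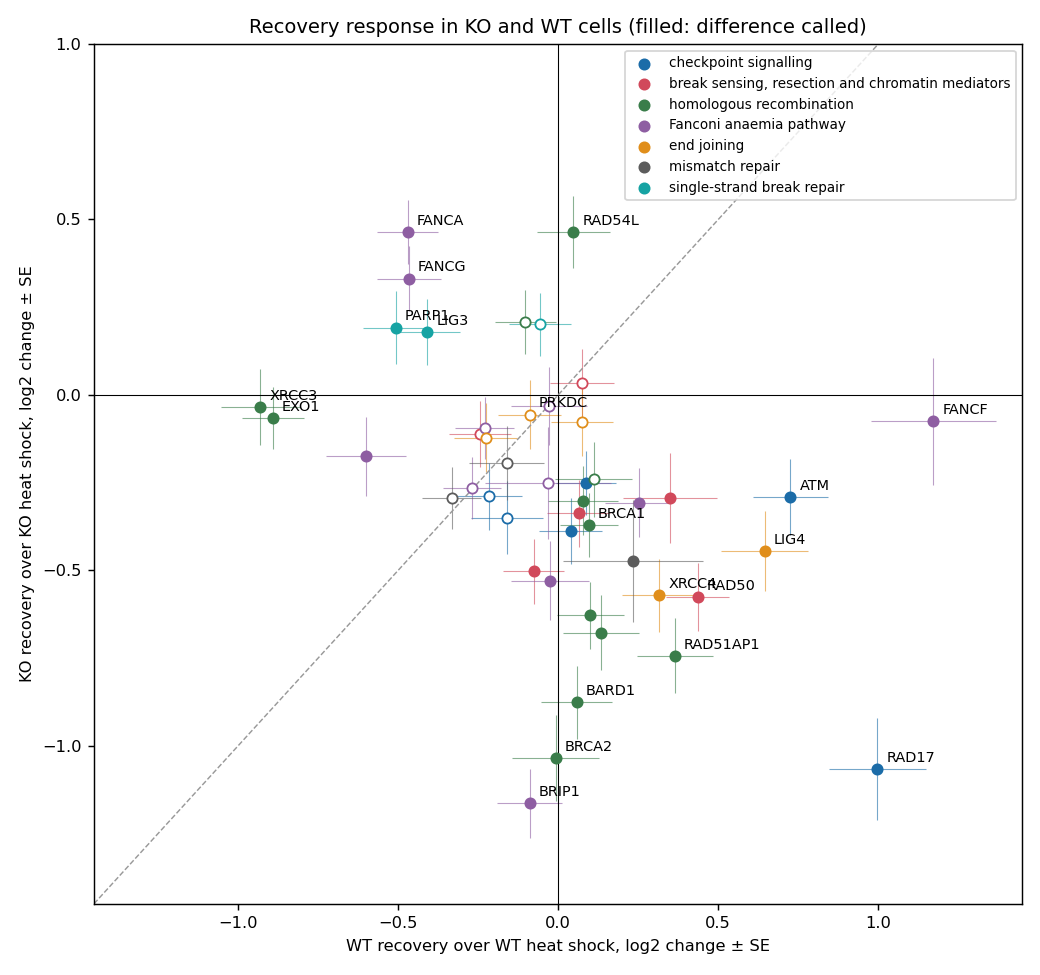
Log2 change of recovery over heat shock in KO cells (y axis) against WT cells (x axis), ± SE from the edgeR fit, for the 46 genes coloured by role and filled where the difference of the responses was called. RAD17 lies at -1.07 in KO and 1.00 in WT cells, FANCA at 0.46 in KO and -0.47 in WT cells, and points on the dashed line changed alike in both lines.

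The size and sign of the changes moved with the GC content of the transcripts, which in the 46 genes ran from 36.1% (RAD51AP1) to 63.8% (XRCC3) with a median of 42.1%. Across the 46 genes, Pearson's r between GC and log2 change was 0.68 for KO recovery, -0.52 for WT recovery, 0.71 for the difference of the responses, -0.66 for KO against WT at heat shock and 0.43 at recovery, with Spearman's rho of 0.78, -0.57, 0.76, -0.69 and 0.47. These are correlations across genes, which are not independent replicates and share libraries. The same tilt was present in all tested genes: in KO recovery the median log2 change was -0.42 for 2438 genes under 40% GC and 0.24 for 4935 genes at 55% or more, and in KO against WT at heat shock it was 0.50 and -0.35. The 14 of the 46 genes under 40% GC had a median of -0.52 in KO recovery, against -0.42 for all genes of that GC, and of 0.12 in WT recovery, against 0.35. In KO against WT their median was 0.75 at heat shock, against 0.50, and -0.0023 at recovery, against -0.22.

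When GC and length were fitted as offsets for each library, the comparisons between lines kept most of their calls. At heat shock 30 genes were higher and 3 lower in KO cells, where 27.1% of all tested genes were higher and 25.0% lower, and 25 of the 33 genes called higher before were called again. The 3 genes lower at heat shock were BRCA1 (-0.50), RAD51C (-0.32) and XRCC5 (-0.19), with the log2 change in brackets. At recovery 32 were higher and 3 lower, where 41.2% of all tested genes were higher and 26.3% lower, and all 26 genes called higher before were called again. The 3 genes lower at recovery were RAD17 (-0.58), BRCA1 (-0.47) and FANCF (-0.71). Of the 19 genes higher at both conditions, 16 were called at both conditions with the offsets too, all but FANCB, FANCI and MSH6.

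The recovery responses changed more with the offsets. In KO recovery 5 genes rose and 12 fell, where 19% of all tested genes rose and 15.4% fell, and 10 of the 24 falls were called again (RAD17, CHEK2, RAD50, BRCA2, BARD1, RAD51AP1, RAD54B, BLM, BRIP1 and XRCC4). In WT recovery 4 genes rose and 24 fell, where 19.1% of all tested genes rose and 33.1% fell. The 4 that rose were ATM, RAD17, RAD50 and FANCF, all called before. For the difference of the responses, 13 genes were higher and 5 lower in KO cells, where 32.1% of all tested genes were higher and 19.5% lower, so the majority turned round. Called in the same direction with and without the offsets were 4 genes with a lower response in KO cells (ATM, RAD17, RAD50 and FANCF) and 6 with a higher one (FANCA, FANCG, EXO1, XRCC3, PARP1 and LIG3). For RAD17 the difference with the offsets was -1.47 (edgeR adjusted p = 1.16e-06), and for EXO1 it was 1.25 (edgeR adjusted p = 1.74e-08). BRCA2, at -0.15, and BRIP1, at -0.26, no longer passed (edgeR adjusted p = 0.433 and 0.0635). What part GC content has in the recovery responses was not tested.

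**Figure D5:**
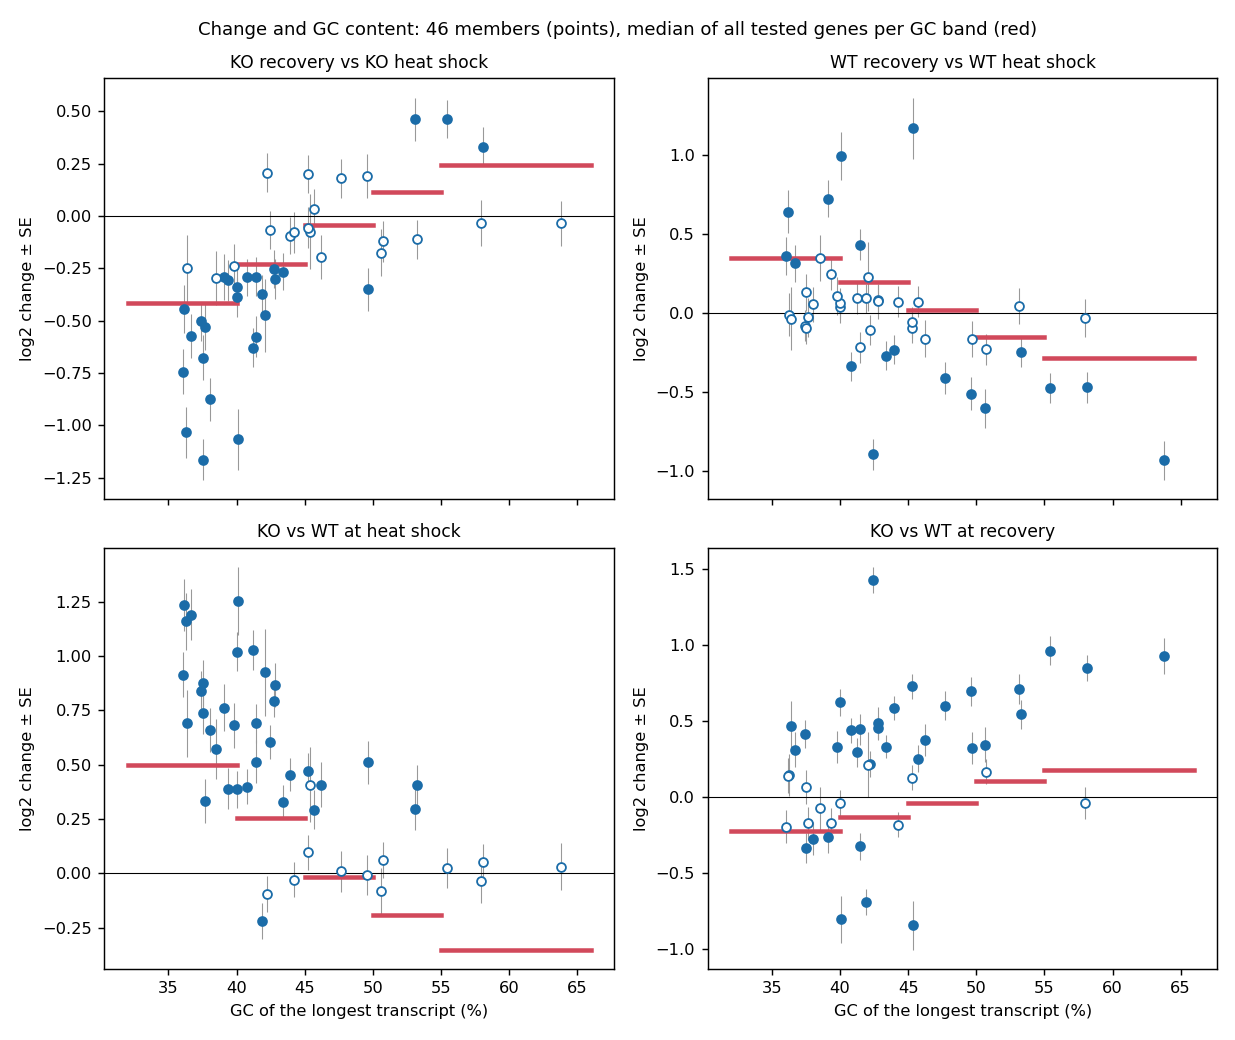
Log2 change (y axis, ± SE from the edgeR fit) against GC content of the longest transcript in percent (x axis) for the 46 genes in 4 comparisons, filled where called, with the median of all tested genes in each GC band as a red bar (bands under 40, 40 to 45, 45 to 50, 50 to 55 and 55 or more). The red bars climb with GC in KO recovery and decline with GC in WT recovery, and at heat shock most points lie above the bar of their band.

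Exons of 26 of the 46 genes share bases with another gene in GENCODE v29, and the counting of strands is not given, so values of these genes are uncertain where the other gene is abundant. More than 10% of exon bases were shared with a gene of higher mean level for XRCC3 (KLC1, 76.7%), LIG3 (RFFL, 29.1%), RAD54L (LRRC41, 25.1%), FANCL (VRK2, 18.7%) and MSH6 (FBXO11, 16.2%), each on the opposite strand. XRCC3 changed by -0.93 in WT recovery, against -0.14 for KLC1. LIG3 changed by 0.60 in KO against WT at recovery, against -0.23 for RFFL. RAD54L changed by 0.46 in KO recovery, against -0.0082 for LRRC41. In KO against WT at heat shock, however, RAD54L and LRRC41 changed alike, by 0.30 and 0.29, and so did MSH6 and FBXO11, by 0.40 and 0.42. TP53BP1 shares 28.7% with TUBGCP4, which had the lower mean level, and the pair changed by 0.29 and 0.28 at heat shock and by 0.25 and 0.35 at recovery. FANCL and VRK2 moved alike, with -0.31 and -0.51 in KO recovery and 0.39 and 0.66 in KO against WT at heat shock. FANCA shares 23.6% with ZNF276, which had the lower mean level and changed by 0.49 in KO recovery and -0.086 in WT recovery. RAD54B shares 59.1% with FSBP on the same strand, and FSBP changed by -0.69 in KO recovery, close to RAD54B. RAD17 shares 9.14% with TAF9 and 5.05% with AK6, and RAD50 shares 79.7% with the protein-coding model AC116366.3 on the same strand. The part of shared reads in these values was not tested.

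A further 76 genes of DNA repair and checkpoint signalling were counted in the same fits. In KO against WT at heat shock 32 were higher and 10 lower, and at recovery 43 were higher and 8 lower, with median log2 changes of 0.19 and 0.34. Over all tested genes, 27.4% were higher and 28.2% lower at heat shock, and 31.8% and 31.3% at recovery. The genes of lowest p among those higher at heat shock were the base excision glycosylase gene MBD4 (log2 change 2.77), SMC6 (1.22), the glycosylase gene TDG (1.20) and USP1 (1.00), which removes ubiquitin from FANCD2. Those lower were ERCC2 (-0.85), LIG1 (-0.62), RPA3 (-0.55) and DDB1 (-0.34), of nucleotide excision repair, ligation and single-strand binding. At recovery the flap nuclease gene FEN1 (1.40), CLSPN (1.35), EME1 (1.00) and MBD4 (1.63) led those higher, and ERCC5 (-0.52), WRN (-0.46), WDR48 (-0.41) and PMS1 (-0.53) those lower. CLSPN codes for the adaptor between ATR and CHEK1, and WRN for a helicase related to BLM.

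In KO recovery 13 of the 76 rose and 26 fell, with a median log2 change of -0.12, led by MAD2L2 (0.58) and OGG1 (0.58) among those that rose and by SMC5 (-0.73), SMC6 (-0.67), RMI1 (-0.66) and RIF1 (-0.65) among those that fell. SMC5 and SMC6 form a complex of chromosome maintenance, RMI1 is a partner of BLM, and RIF1 acts with TP53BP1. In WT recovery 14 rose and 36 fell, with a median of -0.23, led by PMS1 (0.72), WRN (0.60) and ERCC5 (0.57) among those that rose and by FEN1 (-1.23), CLSPN (-0.99), TOP3A (-0.88) and TIPIN (-0.87) among those that fell. The response of 30 was higher and of 22 lower in KO cells, with FEN1 (1.37), OGG1 (1.07), ERCC2 (1.02) and MAD2L2 (0.97) on one side and PMS1 (-1.31), SMC5 (-1.22), WRN (-1.14) and SMC6 (-1.02) on the other. Over all tested genes, 20.6% rose and 21.1% fell in KO recovery, and 24.8% rose and 26.0% fell in WT recovery. The response was higher in KO cells for 28.5% of all tested genes and lower for 27.8%.

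In the authors' deposited tables, which test each replicate pair on its reads alone, 34 of the 46 genes were down and 4 up at a q-value under 0.05 in both KO pairs, and 24 and 3 of these were also called in the fit over all libraries. For WT cells the authors' deposited tables had 9 genes down and 12 up in both pairs, of which 8 and 7 were also called. The share of all genes passing in both pairs is not given here, so these counts do not set the 46 genes apart. In the fit over all libraries without offsets, FANCE, XRCC5, XRCC6 and PRKDC were called in none of the 5 comparisons. With GC and length offsets, however, XRCC5 was called lower and FANCE higher in KO cells at heat shock. In the authors' tables XRCC5, XRCC6 and PRKDC were down in both KO pairs. In both WT pairs XRCC6 was down and XRCC5 up there.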

How the data were processed

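Polyadenylated or ribosome-depleted RNA was made into strand-specific libraries (dUTP method) and read as 50-base single reads, per the labels' protocols. The RNA type of a given library is not stated there. Per the submitters' processing notes, the tools were CASAVA and TopHat (no versions) and the build hg19. The sources used here do not say how reads were counted or with which strand setting. The authors deposited 4 tables, 1 per cell line and replicate, and per the file headers each holds raw read counts per Ensembl gene for 2 libraries, a normalized log2 fold change, and p-values and q-values, none of them computed over replicates. The deposited log2 fold changes and q-values were used for 1 count only, and all other results came from the deposited counts, with NA set to 0.

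Counts were tested with edgeR 4.0.16 in R 4.3.3: filterByExpr, TMM scaling, and the quasi-likelihood F test on all 8 libraries, with Benjamini-Hochberg adjustment over 17471 genes and calls at an adjusted p under 0.05. Recovery and the difference of responses were fitted with a block for each cell line and replicate pair, as the series' design text describes (2 residual degrees of freedom), and KO against WT without a block (4). A standard error is the log2 change divided by the root of F. The KO and WT comparisons rest on 2 libraries a group, which limits their precision, and each of the 46 genes had at least 48 counts in every library. Alternatives were DESeq2 size factors, upper-quartile scaling, no filter, DESeq2 1.42.0, the groups compared alone, GC and length offsets (loess, span 0.3, GENCODE v29 transcripts), a minimum fold change of 1.5, the block added or dropped, and leaving out each library. The scripts were tested on simulated data.

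Every one of the 46 genes may be named. Full statistics were given, in each comparison, for up to 6 genes of largest log2 change in each direction. These were taken from genes called and without overlap (or, for recovery, with the same direction in both pairs). ATM, ATR, CHEK1, CHEK2, BRCA1, BRCA2 and PRKDC were given whatever their values. Outside this rule, BARD1 and BRIP1 in KO against WT at heat shock and PARP1 at recovery were also given in full. Between the lines, lack of overlap in genes picked by size was thus a condition of selection. For recovery, a large change in the same direction in both pairs makes it likely, so it adds no support there. Of the 76 other repair genes, up to 4 of lowest p per direction were named. The genes, roles, lists and alternatives were chosen with earlier results of these data known. Coordinates and promoters are of GRCh38, not of the authors' build.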

Additional observations from a re-analysis of the deposited data

Results flagged for a closer look

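The recovery response differed between KO and WT cells in 30 of the 46 genes by the interaction test (edgeR adjusted p under 0.05, against 28.5% of all tested genes with a higher and 27.8% with a lower response in KO cells), and each value here is the KO response minus the WT response on the log2 scale. Among checkpoint signalling genes it was -2.06 for RAD17, -1.02 for ATM, -0.43 for ATR and -0.34 for TOPBP1. Break sensing and resection genes had -1.01 for RAD50, -0.64 for MRE11A, -0.43 for NBN and -0.40 for RBBP8. In homologous recombination the response was lower in KO cells for RAD51AP1 (-1.11), BRCA2 (-1.03), BARD1 (-0.93), RAD54B (-0.81), BLM (-0.73), BRCA1 (-0.47) and PALB2 (-0.38). It was higher there for XRCC3 (0.90), EXO1 (0.82) and RAD54L (0.42). The Fanconi anaemia genes were split between FANCF (-1.25), BRIP1 (-1.07), FANCL (-0.56) and FANCM (-0.50) on the lower side and FANCA (0.93), FANCG (0.80) and FANCC (0.43) on the higher side. The end joining ligase genes had -1.09 for LIG4 and -0.89 for XRCC4, and MSH3 had -0.71. PARP1 (0.70) and LIG3 (0.59) of single-strand break repair had a higher response in KO cells. With GC and length offsets, 10 of these 30 were called again in the same direction.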

How the results depend on the processing

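With GC and length offsets, 5 genes rose and 12 fell in KO recovery, 4 rose and 24 fell in WT recovery, the response in KO cells was higher in 13 and lower in 5, and 3 genes were lower in KO cells at heat shock (BRCA1, RAD51C and XRCC5) and 3 at recovery (RAD17, BRCA1 and FANCF). Both counts were also 3 with the replicate block beside the offsets, where 4360 and 4594 of 17471 tested genes were lower. With a minimum fold change of 1.5, 0 genes rose and 4 fell in KO recovery, 2 rose and 2 fell in WT recovery, the response was higher in 3 and lower in 10, 11 were higher and 0 lower in KO heat shock, and 4 were higher and 0 lower in KO recovery against WT recovery. Of 17471 tested genes, 725 then rose and 280 fell in KO recovery, and 1345 rose and 916 fell in WT recovery. The response was higher in 2540 and lower in 2449. Between the lines, 1278 were higher and 1600 lower at heat shock, and 2014 and 2738 at recovery. The share of the 46 genes called higher was thus above that of all tested genes at heat shock and below it at recovery. FBXW7 at recovery no longer passed at this minimum (-0.68). With only the groups compared, 7 genes rose in KO recovery, as did 4217 of 16319 tested genes. No gene was lower in KO heat shock (0 of 46) with DESeq2 size factors, without the filter, with DESeq2 or with only the groups compared. Over all tested genes, 4787, 4854, 4079 and 4201 were lower in these settings, of 17471, 32200, 17471 and 16269. At recovery, upper-quartile scaling gave 16 higher and 11 lower, and 4 were lower without the filter. Over all tested genes, that scaling gave 4212 higher and 6852 lower of 17471, and 5143 of 32200 were lower without the filter. The cause of these moves was not tested.

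Among genes called with or without the GC and length offsets, signs turned under the offsets for ATM (0.090), TOPBP1 (0.0050), LIG4 (0.0030) and MSH6 (0.041) in KO recovery, and for ATR (-0.23), RBBP8 (-0.24), BARD1 (-0.29), RAD51AP1 (-0.15), RAD54B (-0.25), FANCL (-0.33) and XRCC4 (-0.31) in WT recovery. They turned for the difference of the responses in ATR (0.20), CHEK1 (0.44), TOPBP1 (0.096), MRE11A (0.10), NBN (0.37), RBBP8 (0.19), BRCA1 (0.034), PALB2 (0.031), FANCL (0.23), FANCM (0.30) and XRCC4 (0.028). Between the lines they turned for FANCE (0.31) and FANCM (-0.19, or -0.18 with the replicate block) at heat shock, and for ATM (0.039, or 0.042 with the block), ATR (0.22) and FANCL (0.31) at recovery. Sign changes of genes called in neither fit are not listed.

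Leaving out 1 library at a time gave 1 to 6 genes rising and 8 to 24 falling in KO recovery, 5 to 8 and 9 to 10 in WT recovery, 6 to 8 with a higher and 14 to 21 with a lower response in KO cells, 30 to 33 higher and 0 to 1 lower at heat shock, and 17 to 27 higher and 3 to 8 lower at recovery. Same-numbered libraries did not deviate together from their group means, with r of -0.014 in KO and -0.016 in WT cells between the conditions. Without the replicate block, 3 genes rose and 23 fell in KO recovery, 8 rose and 12 fell in WT recovery, and the response was higher in 9 and lower in 21. Of 17471 tested genes, 3611 then rose and 3788 fell in KO recovery, and 4442 rose and 4603 fell in WT recovery. The response was higher in 5039 of them and lower in 4960. With a replicate block across the lines, 33 were higher and 1 lower at heat shock, and 26 higher and 6 lower at recovery. Of 17471 tested genes, 4751 were then higher and 4905 lower at heat shock, and 5550 and 5463 at recovery. The 2 libraries a group and lower depth in WT cells limit the smaller changes.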
